A study of Caenorhabditis elegans with 5 samples.

Results

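The genes analysed here encode subunits of the 26S proteasome. They were taken by name alone, as every feature of the count files whose symbol is *pas*, *pbs*, *rpt* or *rpn* followed by a number. That rule found 33 genes among 19176 features. They comprise 7 alpha-ring genes, 7 beta-ring genes, 6 genes of the ATPase ring, 4 genes of the scaffold and ubiquitin receptors of the base, and 9 genes of the lid. RNA of whole wild type N2 *C. elegans* was sequenced, in 2 libraries of L4 larvae and 3 libraries of adults on Day 6 of adulthood. All animals were grown at 20°C on 2 mM IPTG and ate *E. coli* HT115 with L4440, the vector of feeding RNAi without an insert. From L4 on, the Day 6 animals were also kept on FUdR at 25 µg/mL, which blocks DNA synthesis and with it the production of progeny, so age and FUdR cannot be told apart. The study's methods call the libraries independent biological replicates.

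The 26S proteasome degrades proteins that have been tagged with ubiquitin. Its barrel, the 20S core, is a stack of rings in which alpha subunits gate the channel and beta subunits line the chamber that cuts peptides. The 19S particle caps the barrel, and within it the base binds ubiquitin chains, unfolds the substrate with a ring of ATPases and threads it inward, while the lid removes the ubiquitin. In *C. elegans* the subunit genes are controlled together by SKN-1A, a transcription factor that is itself a proteasome substrate.

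The libraries held 9368922 to 29247719 counts, and the smallest count of any of the 33 genes was 16, for *rpn-6.2* in L4 replicate 1. All 33 genes were among the 12758 that passed the filter on low counts. The L4 libraries were unlike each other. Cytosolic ribosomal protein genes took 44.0% of the counts of L4 replicate 1 and 18.9% to 22.98% in the other 4 libraries. Over all tested genes the log2 CPM of the L4 pair correlated at r = 0.80, against 0.96 to 0.97 for the Day 6 pairs, and the TMM factor, the scaling that edgeR uses to compare libraries, was 0.293 in L4 replicate 1 and 1.03 to 1.63 elsewhere. The stage markers followed the labels in all 5 libraries. Yolk protein genes took 0.033% and 0.435% of counts at L4 and 11.2% to 16.2% at Day 6, and edgeR called 1 of 6 higher. Of 16 oocyte and germline markers, 15 were higher at Day 6 by edgeR, and their summed share was 0.016% and 0.062% at L4 and 1.37% to 1.86% at Day 6. All 23 tested major sperm protein genes and 4 of 9 intestinal and 4 of 10 muscle markers were lower, as were 85 of 113 tested collagen genes, while 7 collagen genes were higher. Over all tested genes edgeR called 14.3% higher and 12.5% lower. In RNA of whole worms, fewer cells of a type and less RNA per cell cannot be told apart, and the part of these shifts in the results below was not tested.

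Summed over all 33 genes, proteasome transcripts made up nearly the same share of the total counts of each library. These totals differ in their ribosomal and yolk shares. L4 replicate 1 gave them 0.536% of its counts and L4 replicate 2 gave them 0.628%. For Day 6 replicates 1 to 3 the shares were 0.537%, 0.578% and 0.546%. The Day 6 shares lay inside the range of the L4 pair. After TMM the sum was 18293 CPM in L4 replicate 1, 3891 CPM in L4 replicate 2 and 3556 to 5217 CPM at Day 6, so that L4 replicate 1 stood far above the other libraries on that scale. The division of these counts within the complex, in contrast, did not overlap between the stages. Divided by exon length, the 14 core genes held 74.7% and 62.6% of the proteasome signal at L4 and 55.4%, 55.0% and 56.8% at Day 6, so that all Day 6 libraries were below both L4 libraries. The 19 genes of the 19S particle held the rest, 25.3% and 37.4% at L4 and 43.2% to 44.95% at Day 6. Neither share depends on how libraries are scaled against each other. Both can depend on exon length, which is 801 to 1059 bases in core genes and up to 3171 in 19S genes. Over all tested genes the median log2 difference of L4 replicate 1 from Day 6 went from 1.18 in the shortest eighth to -2.28 in the longest. Division by exon length does not remove such a trend, and its part in these shares was not tested. The difference in the core share was -12.9 percentage points, with an SD of 8.58 points between the L4 libraries. A comparison of 2 libraries with 3 cannot give an exact permutation p below 0.1.

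**Figure D1:**
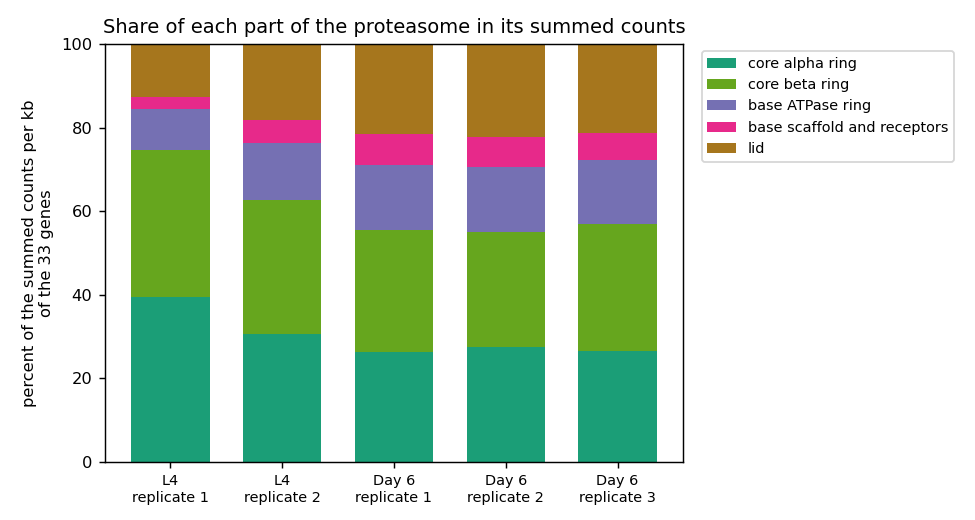
Percent of the summed counts per kb of the 33 proteasome genes held by each part of the complex, in each of the 5 libraries. The core (alpha and beta rings) held 74.7% and 62.6% at L4 and 55.0% to 56.8% at Day 6, and the base and lid held correspondingly more at Day 6. Core genes have shorter exons than most genes of the base and lid, and the part of exon length in this split was not tested.

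Each part of the 19S particle held more of the signal at Day 6. The ATPase ring held 9.72% and 13.7% of the signal per kb at L4 and 15.3% to 15.6% at Day 6. The scaffold and receptor genes held 2.98% and 5.41% at L4 and 6.63% to 7.39% at Day 6, and the lid held 12.6% and 18.3% against 21.2% to 22.2%. None of these ranges overlapped between the stages. In each of them L4 replicate 2 lay between L4 replicate 1 and the Day 6 libraries. Gene by gene, the share within the complex was higher in every Day 6 library than in both L4 libraries for 11 genes, all of the 19S particle, and lower for 8, namely *pas-1*, *pas-2*, *pas-3*, *pas-5*, *pas-6*, *pbs-4*, *pbs-5* and *rpt-6*. Measured against the same proteasome sum, 40.5% of all tested genes were higher in this way and 11.2% lower.

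A similar order was seen with the genes set against the library total. The proteasome sum was nearly the same share of each total, so this scale is close to the share within the complex. In library CPM, which here means counts scaled by the library total alone, all Day 6 libraries were below both L4 libraries for 13 of the 33 genes, against 12.2% of all tested genes. Those 13 were all 7 alpha-ring genes, *pbs-4*, *pbs-5*, *pbs-6* and *pbs-7* of the beta ring, *rpt-6* and *rpn-9*. All Day 6 libraries were above both L4 libraries for 6 genes, *rpt-1*, *rpt-3*, *rpt-5*, *rpn-2*, *rpn-5* and *rpn-7*, against 35.0% of all tested genes. The other 14 genes overlapped. Yolk protein genes took 0.033% and 0.435% of the library totals at L4 and 11.2% to 16.2% at Day 6. A larger yolk share leaves less of the total for other genes, and its part in these counts of genes was not tested. After TMM 4 genes were below both L4 libraries (23.4% of all tested genes), 1 was above both (35.4%) and 28 overlapped.

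**Figure D2:**
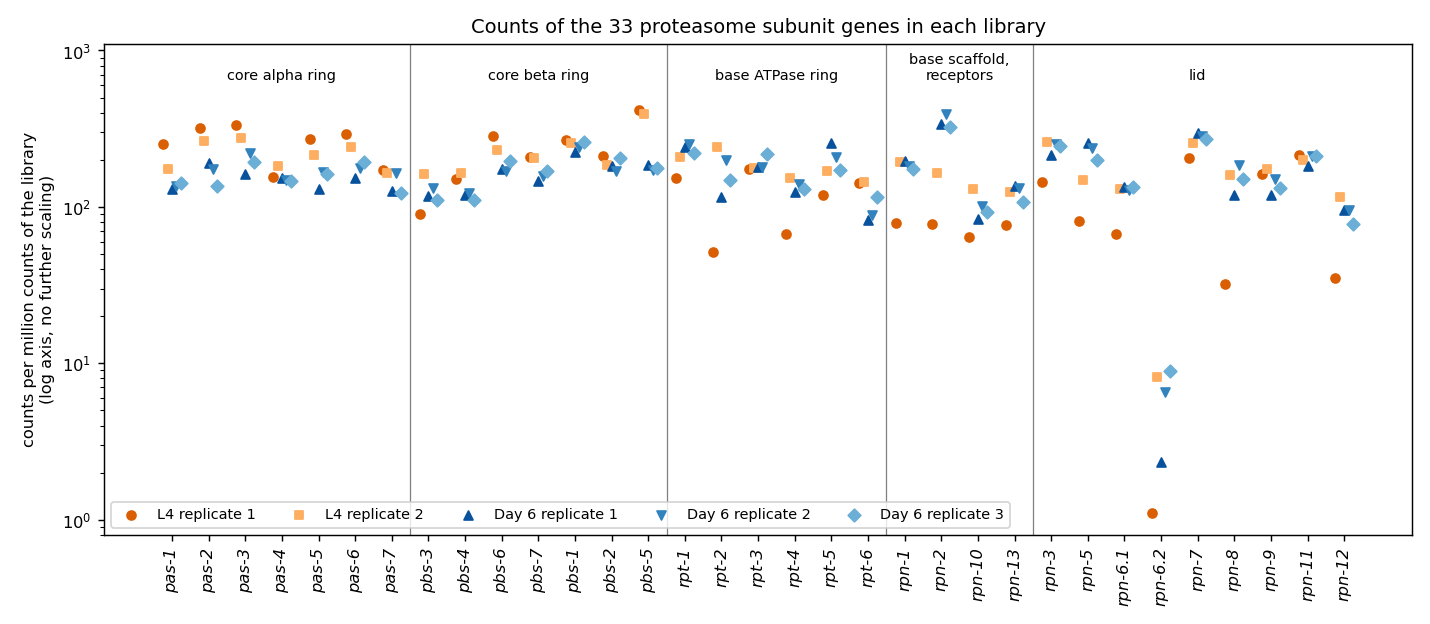
Library CPM (log axis, counts scaled by the library total alone) for each of the 33 genes, grouped by the part of the proteasome. Points are single libraries, and L4 replicate 1 is the lowest point for most genes of the base and lid while *pbs-5* stands at 416 and 394 at L4 against 173 to 186 at Day 6.

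Across libraries the edgeR quasi-likelihood test with TMM scaling and Benjamini-Hochberg adjustment called 0 of the 33 genes, against 26.9% of all tested genes (14.3% higher at Day 6 and 12.5% lower). An unadjusted p under 0.05 was reached by 9 of the 33, against 42.2% of all tested genes. These were *pas-1*, *pas-2*, *pas-3*, *pas-5*, *pas-6*, *pbs-4*, *pbs-5*, *pbs-6* and *rpt-6*, all with negative values, and the smallest adjusted p was 0.057, for *pbs-5*. The limma voom test also called 0 (29.2% of all tested genes), and so did edgeR with library size as the only scaling (2.55%) and with a replicate block (11.5% by the title numbers and 6.04% by the library-name numbers), whereas DESeq2 called 12 lower at Day 6 and 0 higher (20.7% and 15.8% of all tested genes). The 12 were those 9 together with *pas-7*, *pbs-7* and *rpn-9*. The fitted log2 fold change of Day 6 over L4 was negative in 29 genes and positive in 4 with TMM, but negative in 18 and positive in 15 with library size as the only scaling. Its median over the 33 genes was -1.19 with TMM against 0.08 over all tested genes, and -0.07 against 0.46 with library size only.

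The L4 libraries differed on the TMM scale. Set against the mean of the Day 6 libraries on the log2 scale of CPM after TMM, the 33 genes had a median difference of 1.98 in L4 replicate 1 and -0.04 in L4 replicate 2. In L4 replicate 1, 30 of 33 genes stood above all 3 Day 6 libraries, which also held for 35.0% of all tested genes, and 1 gene, *rpn-8*, stood below them (55.7%). In L4 replicate 2, 4 genes stood above all Day 6 libraries (41.7% of all tested genes), 9 below (44.9%), and 20 fell within their range. Without L4 replicate 2 edgeR called 26 of the 33 genes lower at Day 6 (24.2% of all tested genes) and 0 higher (36.5%), at a median log2 fold change of -1.94. Without L4 replicate 1 it called 0 lower (24.1%) and 1 higher (26.0%), *rpn-2*, and the median was 0.14. In these fits the single L4 library borrows its spread from Day 6, so their p-values do not measure variation among L4 animals.

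**Figure D3:**
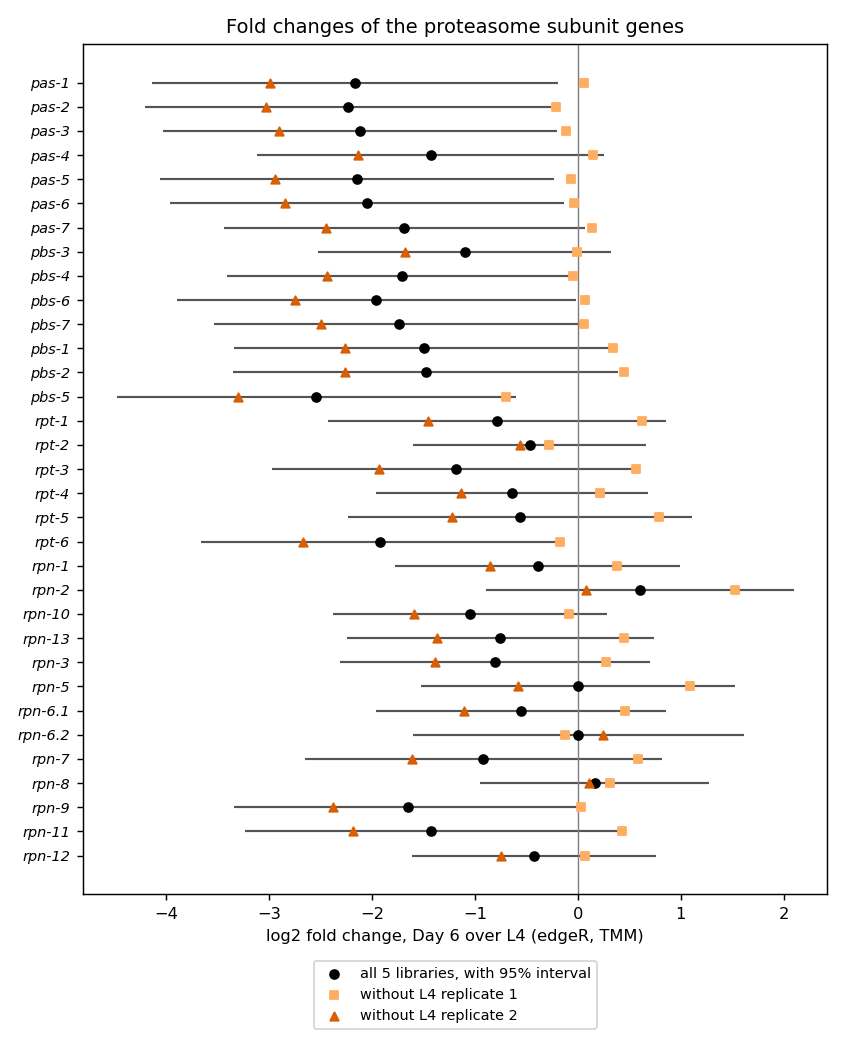
Log2 fold change of Day 6 over L4 after TMM for the 33 genes, with the 95% interval from edgeR on all 5 libraries (black), and the values without L4 replicate 1 (squares) and without L4 replicate 2 (triangles). The medians were -1.19, 0.14 and -1.94.

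The alpha ring (*pas-1* to *pas-7*), whose subunits form the gate of the core, was lower at Day 6 than at L4 in library CPM in each of its 7 genes. Its 7 fitted log2 fold changes ran from -2.24 to -1.43 after TMM, and none of them passed the test. L4 replicate 1 was above Day 6 by a median of 2.92 on the log2 scale and L4 replicate 2 by 0.13. On the TMM scale Day 6 was below both L4 libraries in 2 of the 7 genes, against 23.4% of all tested genes, and overlapped in 5. Without L4 replicate 1 the median log2 fold change of the ring was -0.04. The gene at the low end was *pas-2*, at 321 and 264 library CPM at L4 and 190, 174 and 136 at Day 6. For *pas-2* all Day 6 libraries were below both L4 libraries in library CPM, but after TMM they were on either side of L4 replicate 2. Its log2 fold change after TMM was -2.24 (95% interval -4.21 to -0.26, edgeR adjusted p = 0.086), and -0.81 (adjusted p = 0.334) with library size only. At the other end, *pas-4* stood at 155 and 183 library CPM at L4 and 154, 147 and 145 at Day 6. The Day 6 values of *pas-4* lay just under the lower L4 library. After TMM the log2 fold change was -1.43 (interval -3.12 to 0.26, edgeR adjusted p = 0.173) and -0.18 with library size only. *pas-4* also kept the steadiest share of the complex among the alpha genes, 3.47% to 3.96% of the signal per kb over the 5 libraries.

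The beta ring holds the peptidases, and among its 3 catalytic genes *pbs-5* stood apart. *pbs-5* (chromosome I, 14719167 to 14720477, minus strand, WBcel235) encodes the chymotrypsin-like subunit. It stood at 416 and 394 library CPM at L4 and 186, 173 and 177 at Day 6. In library CPM the L4 libraries were close to each other and every Day 6 library was below both. The L4 values were 2.33 and 2.21 times the Day 6 mean on this scale. After TMM *pbs-5* stood at 1417 and 245 CPM at L4 and 180, 106 and 141 at Day 6. L4 replicate 1 was then far above L4 replicate 2, and every Day 6 library was still below both. After TMM the log2 fold change was -2.54 (95% interval -4.49 to -0.60, edgeR adjusted p = 0.057), and it was -1.19 (adjusted p = 0.139) with library size only. Upper-quartile scaling (adjusted p = 0.044), under which it was the 1 gene of the 33 called lower (16.1% of all tested genes), and DESeq2 (adjusted p = 0.0026) called it lower, while without L4 replicate 1 the value was -0.70 (adjusted p = 0.146).

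The other catalytic genes overlapped between the stages. *pbs-1*, for the caspase-like subunit, stood at 269 and 257 library CPM at L4 and 223, 243 and 258 at Day 6. *pbs-2*, for the trypsin-like subunit, stood at 210 and 186 at L4 and 183, 170 and 206 at Day 6. On the TMM scale too the Day 6 values of both genes were on either side of L4 replicate 2, and L4 replicate 1 was above them. Their log2 fold changes after TMM were -1.50 (95% interval -3.35 to 0.35, edgeR adjusted p = 0.190) and -1.48 (interval -3.35 to 0.39, adjusted p = 0.198), and with library size only -0.13 and -0.09. Per kb, *pbs-5* was the most abundant of the 33 transcripts in both L4 libraries, with 7.78% and 6.78% of the proteasome signal, and *pbs-1* in all 3 Day 6 libraries, with 6.17%, 6.21% and 6.92%.

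Ratios of the counts of 2 genes within a library are free of scaling between libraries. The ratio of *pbs-5* to *pbs-1* was 1.54 in L4 replicate 1, 1.54 in L4 replicate 2, and 0.832, 0.712 and 0.685 at Day 6. Its L4 mean was 2.07 times its Day 6 mean, and the stages did not overlap. The ratio of *pbs-5* to *pbs-2*, genes with exons of 1059 and 1007 bases, was 1.97 and 2.13 at L4 and 1.01, 1.02 and 0.857 at Day 6. In contrast the ratio of *pbs-1* to *pbs-2* was 1.28 and 1.38 at L4 and 1.22, 1.43 and 1.25 at Day 6, which overlapped. These pairs were compared because of their roles. Over all 528 pairs of the 33 genes the ratio did not overlap between the stages in 50.0%, and over the 99 pairs with exon lengths within 10% of each other in 32.3%.

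**Figure D4:**
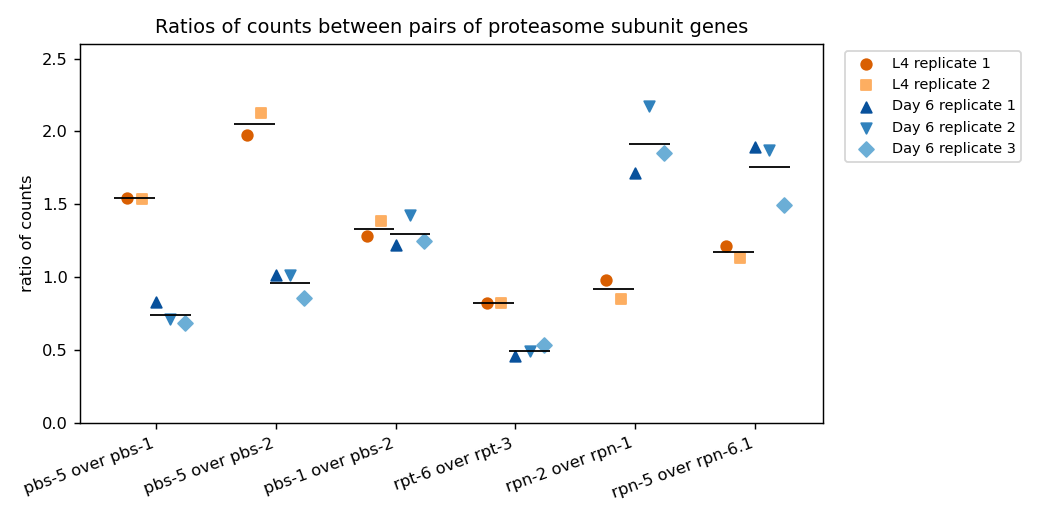
Ratio of counts between pairs of proteasome genes in each library, with black lines for the mean of each stage. *pbs-5* over *pbs-1* was 1.54 in both L4 libraries and 0.685 to 0.832 at Day 6, *rpn-2* over *rpn-1* was 0.982 and 0.851 at L4 and 1.71 to 2.17 at Day 6, and *pbs-1* over *pbs-2* overlapped.

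The remaining beta genes, *pbs-3*, *pbs-4*, *pbs-6* and *pbs-7*, encode subunits of the same ring that have no peptidase activity. The gene of the ring with the highest fitted value was *pbs-3*, at 89.6 and 163 library CPM at L4 and 118, 132 and 111 at Day 6. Its Day 6 values lay between the L4 libraries. Its log2 fold change after TMM was -1.10 (95% interval -2.52 to 0.32, edgeR adjusted p = 0.208). *pbs-4*, *pbs-6* and *pbs-7* had log2 fold changes of -1.71, -1.96 and -1.74 and none passed the test. *pbs-7* shares 70 bases of exon with K07A12.5 on the same strand, so reads there could belong to either gene.

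The ATPase ring (*rpt-1* to *rpt-6*), which unfolds substrates and opens the gate, held genes of either order in library CPM. *rpt-6* stood at 142 and 145 library CPM at L4 and 82.7, 89.01 and 116 at Day 6, with every Day 6 library below both L4 libraries. After TMM it stood at 485 and 89.9 CPM at L4 and 80.3, 54.7 and 92.6 at Day 6, and the stages overlapped. Its log2 fold change after TMM was -1.92 (95% interval -3.66 to -0.18, edgeR adjusted p = 0.092), the lowest of the ring, and -0.59 with library size only. *rpt-1*, *rpt-3* and *rpt-5* were above both L4 libraries in library CPM at Day 6. *rpt-5* stood at 118.9 and 170 at L4 and 257, 210 and 173 at Day 6, the lowest Day 6 library being just above L4 replicate 2. After TMM *rpt-5* had a log2 fold change of -0.57 (interval -2.24 to 1.11, adjusted p = 0.574), against 0.56 with library size only. The ratio of *rpt-6* to *rpt-3*, with exons of 1406 and 1355 bases, was 0.821 and 0.822 at L4 and 0.456, 0.494 and 0.533 at Day 6. This pair was chosen after its values were seen.

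*rpt-2* looked different on the 2 scales, while *rpt-4* overlapped between the stages on both. *rpt-2* stood at 51.4 and 243 library CPM at L4 and 115.5, 200 and 148 at Day 6. In library CPM the Day 6 libraries lay between the L4 pair. After TMM *rpt-2* stood at 175 and 151 CPM at L4 and 112, 123 and 118 at Day 6, all Day 6 libraries being below both, and it had the highest log2 fold change of the ring, -0.47 (95% interval -1.60 to 0.67, edgeR adjusted p = 0.489). *rpt-4* stood at 67.4 and 152 at L4 and 124.8, 140 and 130 at Day 6, which again lay between the L4 libraries.

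Of the 4 genes of the scaffold and receptors of the base, *rpn-2* had the highest Day 6 counts relative to L4. *rpn-2* (chromosome III, 6199184 to 6202594, plus strand) encodes the scaffold on which the ubiquitin receptor RPN-13 sits. It stood at 77.2 and 164 library CPM at L4 and 339, 395 and 323 at Day 6, with every Day 6 library above both L4 libraries. The Day 6 mean was 4.56 times L4 replicate 1 and 2.15 times L4 replicate 2. After TMM the log2 fold change was 0.60 (95% interval -0.89 to 2.10, edgeR adjusted p = 0.4999), and with library size only it was 1.54 (adjusted p = 0.142). Without L4 replicate 1 it was 1.52 (adjusted p = 0.014) and without L4 replicate 2 it was 0.08 (adjusted p = 0.871). Once the dependence on exon length was taken out of each library, the value was -1.06 (adjusted p = 0.366).

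*rpn-1*, the other large scaffold and also a ubiquitin receptor, has exons of nearly the same length, 3171 bases against 3166. It stood at 78.6 and 193 library CPM at L4 and 198, 182 and 175 at Day 6, and overlapped. For *rpn-1* the log2 fold change after TMM was -0.39 (95% interval -1.77 to 0.99, edgeR adjusted p = 0.642). The ratio of *rpn-2* to *rpn-1* was 0.982 and 0.851 at L4 and 1.71, 2.17 and 1.85 at Day 6. The Day 6 mean of this ratio was 2.09 times the L4 mean, with no overlap. No overlap was also found in 32.3% of the 99 pairs with exon lengths within 10% of each other. The pair of *rpn-2* and *rpn-1* was chosen after its values were seen.

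The dedicated ubiquitin receptors overlapped between the stages. *rpn-10* stood at 64.4 and 131 library CPM at L4 and 84.1, 101 and 92.3 at Day 6. *rpn-13* stood at 76.1 and 124 at L4 and 136, 132 and 107 at Day 6. In both genes L4 replicate 1 was the lowest library on that scale, but the highest after TMM, at 219.6 CPM for *rpn-10* and 259.5 CPM for *rpn-13*. Their log2 fold changes after TMM were -1.05 (95% interval -2.38 to 0.28, edgeR adjusted p = 0.199), the lowest of the 4 genes, and -0.75 (interval -2.25 to 0.74, adjusted p = 0.398).

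In the lid, *rpn-11*, the deubiquitinase that cuts the chain from the substrate, depended on the scale. It stood at 214 and 201 library CPM at L4 and 183, 210 and 213 at Day 6, and the stages overlapped. After TMM it stood at 729 and 124 CPM at L4 and 178, 129 and 170 at Day 6, with L4 replicate 1 far above the rest. The log2 fold change of *rpn-11* was -1.42 after TMM (95% interval -3.24 to 0.39, edgeR adjusted p = 0.202) and -0.04 with library size only. It was -2.19 without L4 replicate 2 (adjusted p = 2.3e-04) and 0.43 without L4 replicate 1 (adjusted p = 0.341). *rpn-8*, which encodes its partner subunit, stood at 31.9 and 160 library CPM at L4 and 118.9, 185 and 150 at Day 6. On that scale L4 replicate 1 was the lowest library. After TMM the gene stood at 108.7 and 99.1 CPM at L4 and 115.5, 113.6 and 120.01 at Day 6, with the L4 libraries close to each other. *rpn-8* had the highest log2 fold change of the lid after TMM, 0.16 (interval -0.95 to 1.27, adjusted p = 0.814), and was the 1 gene of the 33 whose Day 6 libraries all lay above both L4 libraries on that scale, which held for 35.4% of all tested genes. The 4 genes below both on that scale were *pas-3*, *pas-5*, *pbs-5* and *rpt-2*, against 23.4%.

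With library size as the only scaling, *rpn-5* and *rpn-9* were at opposite ends of the lid, with log2 fold changes of 1.01 and -0.33. *rpn-5*, for a scaffold subunit, stood at 81.5 and 148 library CPM at L4 and 255, 240 and 200 at Day 6. All Day 6 libraries were above both L4 libraries. After TMM its log2 fold change was 0.00 (95% interval -1.53 to 1.53, edgeR adjusted p = 0.998), so that its sign depends on the L4 library. It was 1.09 without L4 replicate 1 (adjusted p = 0.060), -0.58 without L4 replicate 2 (adjusted p = 0.230) and -0.84 with the length trend removed (adjusted p = 0.448). The ratio of *rpn-5* to *rpn-6.1*, with exons of 1711 and 1646 bases, was 1.21 and 1.13 at L4 and 1.90, 1.88 and 1.497 at Day 6, without overlap, and was also chosen after its values were seen. *rpn-9*, a subunit of the same fold, stood at 161 and 174 at L4 and 118.8, 152 and 132 at Day 6, with the Day 6 libraries below both. The log2 fold change of *rpn-9* after TMM was -1.65 (interval -3.34 to 0.04, adjusted p = 0.125), the lowest of the lid. *rpn-9* overlaps T06D8.12 on the opposite strand over 140 bases of exon, and the strand setting of the counting is not given in the sources used here.

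The paralogs *rpn-6.1* and *rpn-6.2* were expressed at very different levels. RPN-6 clamps the lid to the core. *rpn-6.1* stood at 67.1 and 131 library CPM at L4 and 135, 128 and 134 at Day 6. *rpn-6.2* stood at 1.102 and 8.22 at L4 and 2.32, 6.59 and 8.94 at Day 6, the lowest of the 33 genes in every library. The ratio of *rpn-6.2* to *rpn-6.1* was 0.016 and 0.063 at L4 and 0.017, 0.052 and 0.067 at Day 6, which overlapped. How reads shared by the paralogs were assigned is not given in the sources used here, so these low counts are uncertain. Their log2 fold changes after TMM were -0.55 (95% interval -1.97 to 0.86, edgeR adjusted p = 0.511) for *rpn-6.1* and 0.00 (interval -1.60 to 1.61, adjusted p = 0.997) for *rpn-6.2*. The scaffold genes *rpn-3*, *rpn-7* and *rpn-12* had log2 fold changes of -0.81, -0.92 and -0.43 and did not pass the test.

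The split between core and 19S particle went together with exon length. The 14 core genes have exons of 801 to 1059 bases in all, while the 19S genes reach 3171. Over the 33 genes the log2 difference of L4 replicate 1 from Day 6 correlated with exon length at Pearson r = -0.65 (Spearman rho = -0.64), and that of L4 replicate 2 at r = -0.58 (rho = -0.50). The points share their libraries and their Day 6 mean. In L4 replicate 1 the same slope was seen over all tested genes, whose median difference went from 1.18 in the shortest eighth to -2.28 in the longest. In L4 replicate 2 it went from 0.12 to -0.38. Within each length class that held any of the 33 genes, their median in L4 replicate 1 was above that of all genes, for example 2.50 against 0.23 at 640 to 907 bases. In L4 replicate 2 their median was below that of all genes in 5 of these 6 classes, for example -0.48 against 0.00 at 1682 to 2092 bases. With the length trend removed in every library, edgeR called 0 of the 33 genes, against 31.5% of all tested genes. All 33 values were then negative, with a median of -1.68 against -0.32 over all tested genes. With the length trend removed and L4 replicate 1 left out, 28 were positive and 5 negative, and 0 were called, against 50.0%.

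**Figure D5:**
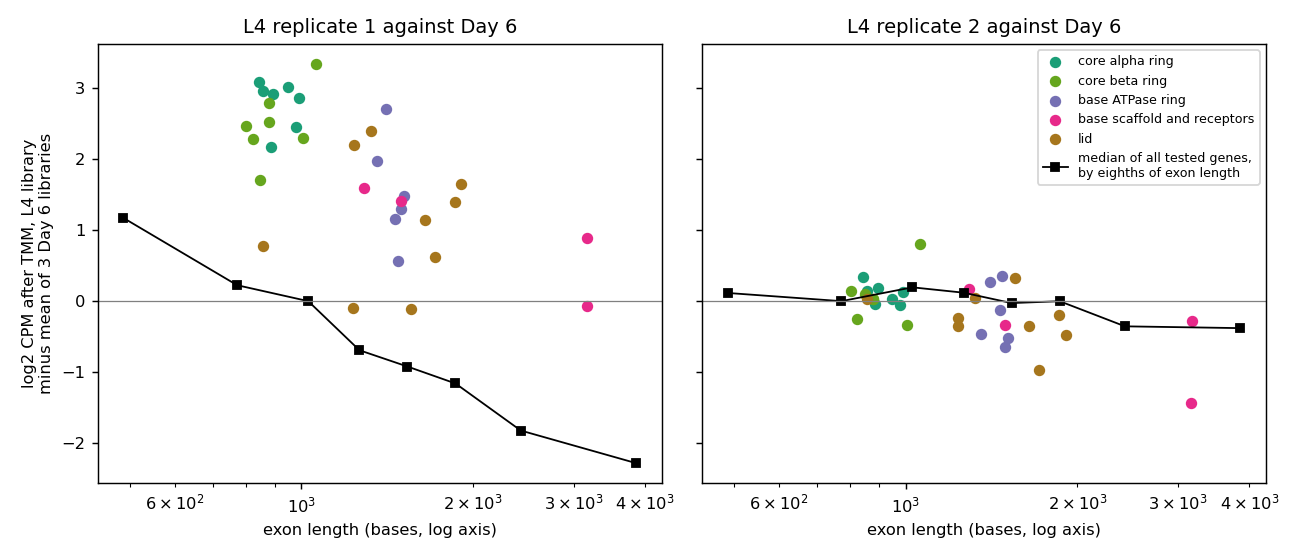
Difference of each L4 library from the Day 6 mean (log2 CPM after TMM) against exon length (log axis) for the 33 genes, coloured by part of the proteasome, with the median of all tested genes in 8 classes of exon length (black squares). The line of all genes runs from 1.18 to -2.28 in L4 replicate 1 and from 0.12 to -0.38 in L4 replicate 2, and the 33 genes lie above it in replicate 1.

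Genes that act with the proteasome were compared in the same test, beside the 26.9% of all tested genes that edgeR called. Among 9 partners and cofactors edgeR called 0, with an unadjusted p under 0.05 in 2 (42.2% of all tested genes), while voom called 0 (29.2%). DESeq2 called 1 lower (20.7% of all tested genes), *psme-3*, a gene of an alternative cap of the core. Its DESeq2 value was -2.39, while its edgeR value without L4 replicate 1 was 0.19. The lowest edgeR p belonged to *aip-1*, an arsenite-inducible gene whose product binds the proteasome. *aip-1* stood at 14.1 and 11.98 CPM after TMM at L4 and 32.7, 24.9 and 37.9 at Day 6, without overlap. Its log2 fold change was 1.29 (SE 0.49, edgeR adjusted p = 0.085). Of 9 genes of ubiquitin and the CDC-48 segregase edgeR called 0, with 0 at an unadjusted p under 0.05, and voom called 0. DESeq2 called 1 of them lower, *ubq-2*, against 20.7% of all tested genes. The DESeq2 value of *ubq-2* was -2.58, while its edgeR value without L4 replicate 1 was 0.76. The lowest edgeR p was for *cdc-48.2* at -1.38 (SE 0.68, adjusted p = 0.163).

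Of 8 genes of the SKN-1A pathway, which controls the proteasome genes, edgeR called 1 higher at Day 6, against 14.3% of all tested genes. An unadjusted p under 0.05 was found in 3, against 42.2%. Both voom and DESeq2 called 2 higher at Day 6, *ddi-1* and *wdr-23*, against 16.8% and 15.8% of all tested genes. *ddi-1* encodes the protease that cleaves and activates SKN-1A. It stood at 11.04 and 23.7 CPM after TMM at L4 and 55.1, 57.5 and 73.0 at Day 6, and every Day 6 library was above both L4 libraries. *ddi-1* rose by 1.82 on the log2 scale (SE 0.55, edgeR adjusted p = 0.044). The value was 1.46 (adjusted p = 0.0047) without L4 replicate 1 and 2.49 (adjusted p = 1.1e-04) without L4 replicate 2. The call was lost without each Day 6 library in turn (adjusted p = 0.134, 0.156 and 0.188 without replicates 1, 2 and 3) and with a replicate block (adjusted p = 0.248 by the title numbers and 0.298 by the library-name numbers), while the value stayed between 1.46 and 2.49 in all 17 alternatives and passed the test in 9 of them. *wdr-23*, which encodes a ubiquitin ligase adaptor that targets SKN-1, stood at 2.82 and 23.8 CPM after TMM at L4 and 63.6, 63.7 and 66.8 at Day 6, without overlap. Its fitted value of 2.25 (SE 0.84) did not pass with edgeR (adjusted p = 0.080). *skn-1* itself, counted over all its isoforms, had a log2 fold change of 0.76 (SE 0.45, edgeR adjusted p = 0.236). The pathway did not move as a whole. *png-1* and *sel-9* had negative values of -1.07 and -1.24 (edgeR adjusted p = 0.121 and 0.122), while *sel-1*, *sel-11* and *mdt-15* had 1.22, 0.56 and 0.34. With the length trend removed edgeR called *png-1* lower at -1.89 (adjusted p = 0.029, 17.9% of all tested genes) and *ddi-1* higher at 1.53 (adjusted p = 0.040, 13.6%).

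The COP9 signalosome and eIF3 are complexes built on the same plan as the lid, and the CCT chaperonin is another ring of several subunits. None of their genes was called by edgeR, of 6, 11 and 8 tested, against 26.9% of all tested genes. An unadjusted p under 0.05 was found in 0, 4 and 3 of them, against 42.2%. The voom test called 0 in each list (29.2% of all tested genes). DESeq2 called 0, 5 and 4, all lower at Day 6 (20.7%). Their median log2 fold changes after TMM were 1.11, -0.98 and -1.46, against -0.55 for the lid and 0.08 over all tested genes. The lowest p in each belonged to *csn-6* at 1.29 (SE 0.58, edgeR adjusted p = 0.133), *eif-3.K* at -2.55 (SE 0.85, adjusted p = 0.060) and *cct-7* at -2.28 (SE 0.86, adjusted p = 0.083). Without L4 replicate 1 the medians were 0.61 for COP9, -0.13 for eIF3, 0.00 for CCT and 0.31 for the lid, and without L4 replicate 2 they were 2.26, -1.73, -2.16 and -1.11. The difference between these lists was not tested.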

How the data were processed

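The data were RNA counts from 2 L4 and 3 Day 6 libraries of N2 worms. The deposited values are whole-number counts per gene, made by the authors from rRNA-depleted, strand-specific single reads aligned to WormBase WS254 with TopHat2 and counted with featureCounts, in versions not given in the sources used here. The submitters' processing notes also name edgeR, limma and DESeq2, which came after the counts. Strand setting and treatment of multi-mapping reads are not given in the sources used here. Exon lengths and coordinates came from Ensembl 115 annotation of WBcel235. Of the 33 genes, 10 overlap exons on the opposite strand and 1 on the same strand.

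Day 6 was compared with L4 by the edgeR 4.0.16 quasi-likelihood test (R 4.3.3) after TMM, on genes kept by filterByExpr (minimum count 10, minimum total 15), with Benjamini-Hochberg adjustment over 12758 genes and calls at an adjusted p under 0.05. Log2 CPM used a prior count of 2. Shares within the complex used counts divided by exon length. The edgeR, voom and DESeq2 tests were tried on simulated data, in which libraries of a group shared the same expected levels and all genes the same spread. That trial does not cover an L4 pair that differs as a whole, as here. Alternatives were RLE, upper-quartile and library size scaling, DESeq2 1.42.0, voom (limma 3.58.1), other filters, each library left out, a replicate block and removal of the trend with exon length (lowess, span 0.3). Library size set to the summed proteasome counts was chosen after seeing the data. Python 3.11.15 with pandas 2.3.3 was used for tables, and matplotlib 3.10.9 for figures.

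The members and gene lists were chosen with earlier results of these data known. Genes named with values in every library were the 3 catalytic genes, *rpn-11*, the ubiquitin receptors, the *rpn-6* paralogs, and in each part of the complex the highest and lowest fitted fold change. Of each other list, every called gene or the one of lowest p was named. *rpt-4*, *rpn-5*, *wdr-23*, *psme-3*, *ubq-2*, *skn-1*, *png-1*, *sel-9*, *sel-1*, *sel-11* and *mdt-15* were described after their values were seen. The study's methods state that libraries of the same replicate were prepared together, but the number in the sample title and that in the library name conflict for L4. Deviations from the group means correlated at 0.34 and 0.27 between same-numbered libraries by title, and at -0.27 and 0.13 by library name. The deviations of the L4 pair are exact opposites, so each value for an L4 library also fixes the value for the other. These values therefore do not settle which numbering marks libraries prepared together.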

Additional observations from a re-analysis of the deposited data

How the results depend on the processing

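The count of proteasome genes called lower at Day 6 was 0, and became 1 (*pbs-5*) with upper-quartile scaling and 12 with DESeq2. The count called higher was 0. With each library left out in turn the count called lower ranged from 0 to 26, the count called higher from 0 to 1, the median log2 fold change relative to all genes from -2.99 to 0.07, and the difference in core share per kb from -18.9 to -6.81 percentage points. That median was -1.27 with all libraries, -0.53 with library size only, -0.57 with library size set to the summed proteasome counts (chosen after seeing the data), and -1.45 to -1.32 with RLE, upper-quartile, DESeq2 and voom. Scaling alone moved the median of all genes from 0.08 to -0.14 (RLE), -0.22 (upper quartile) and 0.46 (library size only). With a replicate block the median was -1.24 by title numbers and -1.41 by library-name numbers, and 0 proteasome genes were called in either direction. The block lowered the calls over all genes from 3430 to 1462 and 771. The sign of the fitted value changed in 11 of the 33 genes with library size only, in 20 without L4 replicate 1, in 26 when the length trend was also removed, and in 14 with the proteasome sum as library size. The cause was not tested. The main limits are 2 L4 libraries that differ as a whole, FUdR given at Day 6 only, and low counts of *rpn-6.2*.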

Other observations

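The files annotate 2 further genes as proteasome components that the naming rule left out, and they were looked at after their values were seen. F56F11.4 is annotated as a 26S proteasome regulatory subunit. It stood at 5.40 and 4.50 CPM after TMM at L4 and 24.5, 17.2 and 19.5 at Day 6, with every Day 6 library above both L4 libraries. F56F11.4 rose by 2.05 on the log2 scale (SE 0.53, edgeR adjusted p = 0.029). The value was between 1.54 and 2.69 in 17 alternatives and passed the test in 9 of them. It did not pass without each Day 6 library in turn (adjusted p = 0.147, 0.127 and 0.138 without replicates 1, 2 and 3), with a replicate block (adjusted p = 0.210 and 0.370 by the 2 numberings) or once the exon length trend was taken out (adjusted p = 0.057). F37A4.5, annotated as an Rpn11-type subunit, stood at 3.76 and 13.4 CPM at L4 and 1.06, 3.82 and 4.76 at Day 6, with overlap, and a log2 fold change of -1.45 (SE 0.82, edgeR adjusted p = 0.215).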
